A study of Mus musculus with 208 samples.

Results

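The proteasome subunit genes are the genes whose mouse symbol is Psma, Psmb, Psmc, Psmd, Psme or Psmg followed by a number. Of the 39179 genes in the deposited counts, 14533 had a mean of at least 1 CPM (counts scaled to a common library total), and 45 of these carried such a symbol and were no pseudogene. Psmb9 at 1.59 CPM and Psmb8 at 3.17 CPM were the lowest members above that minimum, and Psma8 at 0.32 CPM and Psmb11 at 0.046 CPM lay below it. All 45 members were detected in every library and passed the filter on low counts at every age, so none is missing from the counts below.

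The libraries hold polyadenylated RNA of the whole striatum, the brain region whose projection neurons are most affected in Huntington disease. The mice were C57BL/6 and heterozygous for a knock-in allele at the huntingtin gene, Htt, whose CAG repeat length names the line: Q20, a repeat of normal length that serves as the control, Q80, Q92, Q111, Q140 and Q175. Each line was sampled at 2, 6 and 10 months. Wild-type mice housed with Q20 were sampled at 2 and 10 months, and wild types housed with each of the 6 lines at 6 months. There were 26 groups of 8 libraries, with 4 females and 4 males, except Q80 at 2 months (3 females, 5 males) and Q20 at 10 months (5 females, 3 males). The allele is present in all cells from conception, and each repeat length is 1 line, so repeat length and line cannot be told apart. The labels number the libraries of a group without saying that each came from its own animal, so p-values measure the spread between these libraries.

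The proteasome is the main machine that degrades ubiquitin-tagged proteins. Its 20S core is a barrel of alpha and beta rings, in which Psmb5, Psmb6 and Psmb7 cut the substrate, and the 19S regulatory particle on its ends binds, unfolds and feeds in the tagged proteins. Interferon induces the alternative catalytic subunits Psmb8, Psmb9 and Psmb10, which make the immunoproteasome, and the paired activator subunits Psme1 and Psme2 (PA28 alpha and beta), which open the core without ubiquitin. These forms favour peptides for antigen presentation. In neurons the proteasome turns over synaptic proteins, and ubiquitin and proteasomes gather at the huntingtin aggregates of Huntington disease.

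Members were tested with the whole table of genes. The main test was edgeR's quasi-likelihood test on the rounded expected counts, within each age and with sex as a covariate. Calls were made below 0.05 after Benjamini-Hochberg adjustment over all genes of that age, and adjusted p-values below are of that test. Changes are log2 fold changes with the standard error (SE). Libraries held 29120490 to 49550126 counts, and the members took 0.259% of them on average (0.230% to 0.357%). The striatal projection neuron markers were high in the controls, with a summed level of 9445 to 11220 CPM over 12 genes in Q20 at 6 months. They summed to 5131 to 5909 CPM in Q175, where 11 of the 12 were lower. Endothelial and mural markers were lower for 9 of 12 genes in Q175 at 6 months, and microglial markers for 3 of 14, beside 36.2% of all genes called in either direction. Of 8 astrocyte markers 1 was higher and 3 were lower, and their summed level was 3864 to 4236 CPM in Q175 and 4417 to 5103 CPM in Q20, without overlap. The part of these cell types in the results below was not tested beyond the microglial and tissue scores. In bulk tissue, fewer cells of a type and less RNA per cell cannot be told apart.

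Levels were compared between genes in FPKM, which allow for gene length, over the 96 libraries of 6 months. Psmc5, an ATPase of the 19S base, was highest at 80.4 FPKM ± 3.49 (SD, n = 96), followed by the catalytic Psmb6 at 77.5 FPKM and the structural beta subunits Psmb4 at 73.1 FPKM and Psmb1 at 72.9 FPKM. The 3 constitutive catalytic subunits had a median of 67.6 FPKM, the 4 structural beta subunits 62.8, the 7 alpha subunits 53.1 and the 6 ATPases 49.5. The 8 lid subunits, among them the deubiquitinase Psmd14, had a median of 36.7 FPKM (20.3 to 54.1). Genes of the same ring thus differed up to 2.03-fold among the alpha and 2.64-fold among the ATPase genes. Assembly chaperones, which leave the finished particle, were lower, with medians of 8.94 FPKM for the 4 of the core and 8.41 FPKM for the 3 of the 19S base.

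**Figure D1:**
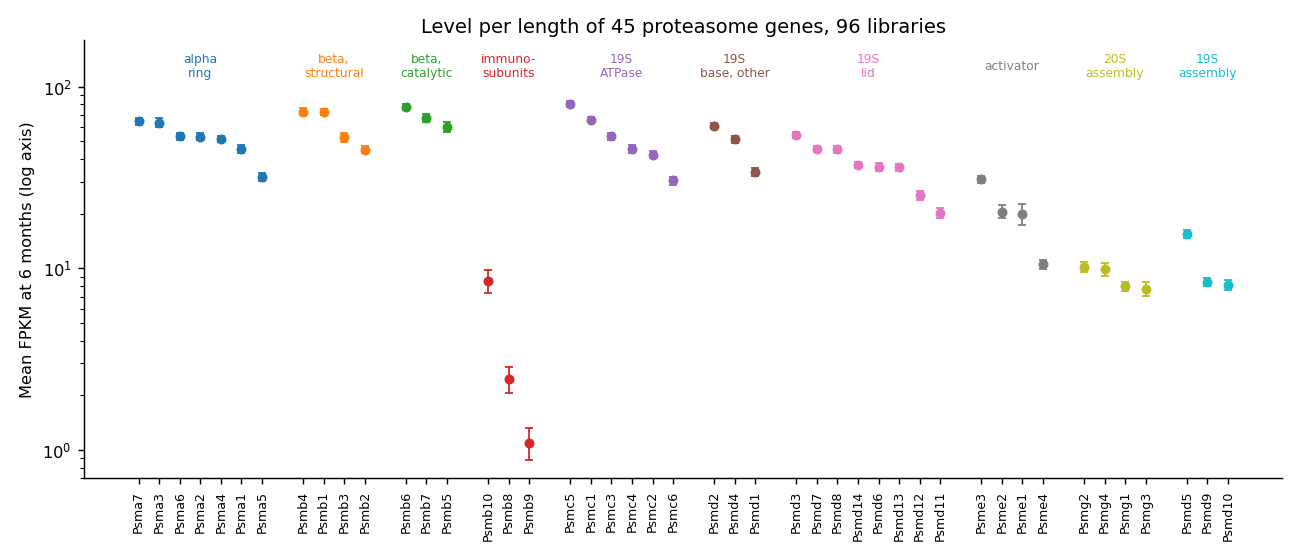
Mean FPKM of the 45 proteasome genes over the 96 libraries of 6 months on a log axis, grouped by role, with the SD as bars. Subunits of the core and the 19S particle lie between 20.3 and 80.4 FPKM, while Psmb8 and Psmb9 lie at 2.47 and 1.10 FPKM.

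The interferon-induced catalytic subunits were far below the constitutive ones they replace. Psmb5 was at 24.3 times the level of Psmb8 per length, Psmb6 at 70.6 times that of Psmb9 and Psmb7 at 7.90 times that of Psmb10. The activator genes were nearer to each other: Psme3 (PA28 gamma, the nuclear form) was at 30.9 FPKM, Psme2 at 20.6, Psme1 at 20.0 and Psme4, the large single-chain activator, at 10.6. The plot of levels by role shows these steps. Psme2 has a near copy, Psme2b, listed at 0.52 CPM, and reads may have been split between them. Spread between libraries of 1 group, averaged over the 12 groups of 6 months, was lowest for Psmd2, a ubiquitin-binding scaffold of the 19S base (coefficient of variation 2.46%), Psmc3 (2.85%) and Psmd8 (2.98%). It was highest for Psmb10 (10.6%), Psmb8 (15.1%) and Psmb9 (18.3%), so a given change was harder to call in the immunoproteasome genes.

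Promoter sequence was available for 38 of the 45 members in the RefSeq windows (build GRCm38.p6; 250 bases before to 50 after the start). Psmb1, Psmb2, Psmb7, Psmc3, Psmd3, Psmd7 and Psmg2 had no window. The build of the deposited counts is not given in the sources used here, and the coordinates below are those of RefSeq. Both strands were searched for the antioxidant response element TGACNNNGC, the core of the site through which Nfe2l1 is known to raise proteasome genes, and for 2 interferon sites, TTTC with 2 further bases and TTTC (interferon-stimulated response element) and TTCNNNGAA (gamma-interferon activation site). The first was in 6 of 38 members (15.8%) and in 13.99% of all 27025 genes. The second was in 5 of 38 (13.2%) and in 3.99% of all genes, and the third in 3 of 38 (7.89%) and 9.55%. Members with the first were Psmb5, Psmb6, Psmc6, Psmd9, Psmd12 and Psme4. Those with the second were Psmb3, Psmd4, Psmd9, Psme1 and Psmg4, and those with the third Psmb8, Psmd2 and Psmg1. Of these carriers of an interferon site, only Psme1 and Psmb8 are among the interferon-induced members named above. Shown are the constitutive catalytic Psmb5 and Psmb6, the immunoproteasome Psmb8 and the activator Psme1, with the match in capitals, 5′ to 3′ on the strand of the gene:
Psmb5, chr14:54617996-54618055, minus strand, match at -47 to -39: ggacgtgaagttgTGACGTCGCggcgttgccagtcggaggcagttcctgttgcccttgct
Psmb6, chr11:70525297-70525356, plus strand, match at -9 to -1: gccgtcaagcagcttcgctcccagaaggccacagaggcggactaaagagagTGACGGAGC
Psmb8, chr17:34198072-34198131, plus strand, match at -97 to -89: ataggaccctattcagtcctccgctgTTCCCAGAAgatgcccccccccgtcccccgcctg
Psme1, chr14:55578493-55578522, plus strand, match at 10 to 19: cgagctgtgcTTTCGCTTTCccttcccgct
Positions count from the gene start. The windows of Psmb9, Psmb10 and Psme2 held none of the 3 motifs, which says only that these letters are not in the windows.

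At 6 months, the 14 called members in Q175 against Q20 were led by 3 interferon-inducible genes. Psme1 rose by 34%, Psmb10 by 32% and Psme2 by 15%, while 39 of the 45 members lay within 0.1 of 0 on the log2 scale. In all, 13 members rose and 1 fell (14 of 45, 31.1%), beside 36.2% of the 17642 genes tested, so the share called was below that of all genes. By direction, 3179 of all genes were called higher and 3203 lower. Called or not, 31 of the 45 members had positive and 14 negative changes. The median change of the members was 0.035, against 0.0097 over all genes.

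Psme1 had 22.6, 27.3 and 28.1 CPM (lowest, median and highest of 8 libraries) in Q175 and 17.6, 20.0 and 23.4 CPM in Q20, a change of 0.42 (SE 0.048, adjusted p = 6.40e-12). 7 of the 8 Q175 libraries were above every Q20 library. Its partner Psme2 had 17.3, 19.8 and 20.9 CPM in Q175 and 15.2, 17.2 and 17.8 CPM in Q20, a change of 0.21 (SE 0.037, adjusted p = 3.53e-06). Here too 7 of 8 libraries lay above all controls, and 1 Q175 library fell within their range. The other activators were not called, with changes of -0.0067 for Psme3 and -0.049 for Psme4.

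Psmb10, the trypsin-like subunit of the immunoproteasome, had 11.2, 12.7 and 14.4 CPM in Q175 and 8.50, 9.57 and 10.8 CPM in Q20. The groups did not overlap, and the change was 0.40 (SE 0.069, adjusted p = 1.98e-06). With wild types housed with Q20 in place of Q20 it was 0.20 (adjusted p = 0.020). The other immunoproteasome subunits were not called. Psmb8 had 2.31, 2.93 and 3.85 CPM against 2.60, 2.79 and 3.13 CPM in Q20 (change 0.050, SE 0.096, 95% interval -0.14 to 0.24). Psmb9 had 1.14, 1.71 and 2.16 CPM against 1.204, 1.5 and 1.95 CPM (change 0.093, SE 0.11, 95% interval -0.13 to 0.31). Both intervals include no change, and whether these subunits differ from Psmb10 in their change was not tested.

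Among the constitutive catalytic subunits only Psmb5, the chymotrypsin-like one, was called. It had 53.1, 56.4 and 62.1 CPM in Q175 and 50.3, 52.0 and 54.3 CPM in Q20, a change of 0.12 (SE 0.028, adjusted p = 4.83e-04). Psmb7 changed by 0.053 (adjusted p = 0.054) and Psmb6 by -0.046 (adjusted p = 0.16). The 7 alpha subunits, whose changes ran from -0.012 to 0.055, and the 4 structural beta subunits, from -0.0052 to 0.035, held no called member.

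The 19S particle and the assembly factors added 10 called members. Psmd1, the largest 19S scaffold, rose by 0.10 (SE 0.024), from 99.7, 103.0 and 107.1 CPM in Q20 to 105.8, 111.0 and 116.1 CPM in Q175. The lid subunit Psmd6 was at 48.0 to 53.0 CPM against 45.9 to 47.9 CPM, without overlap, for a change of 0.081 (SE 0.027). Further rises were between 0.060 and 0.080, in Psmd8 and Psmd12 of the lid, the ubiquitin receptor Psmd4, and the ATPases Psmc3, Psmc4 and Psmc6. These smaller members were singled out after their values were seen, and Psmc6, Psmd4, Psmd8 and Psmd12 each lost the call under at least 1 alternative. The ATPase Psmc1 fell: it had 91.0, 96.9 and 100.9 CPM in Q175 and 100.1, 101.7 and 103.6 CPM in Q20, a change of -0.079 (SE 0.023, adjusted p = 0.0044), with 7 of 8 libraries below every control, and on log2(FPKM + 1) it was at -0.0076 and not called. Psmg3, a chaperone of core assembly, rose by 0.19 (SE 0.045), from 6.17, 6.92 and 7.63 CPM to 7.39, 7.999 and 8.58 CPM. The other 3 core chaperones and the 3 chaperones of the 19S base were not called.

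**Figure D2:**
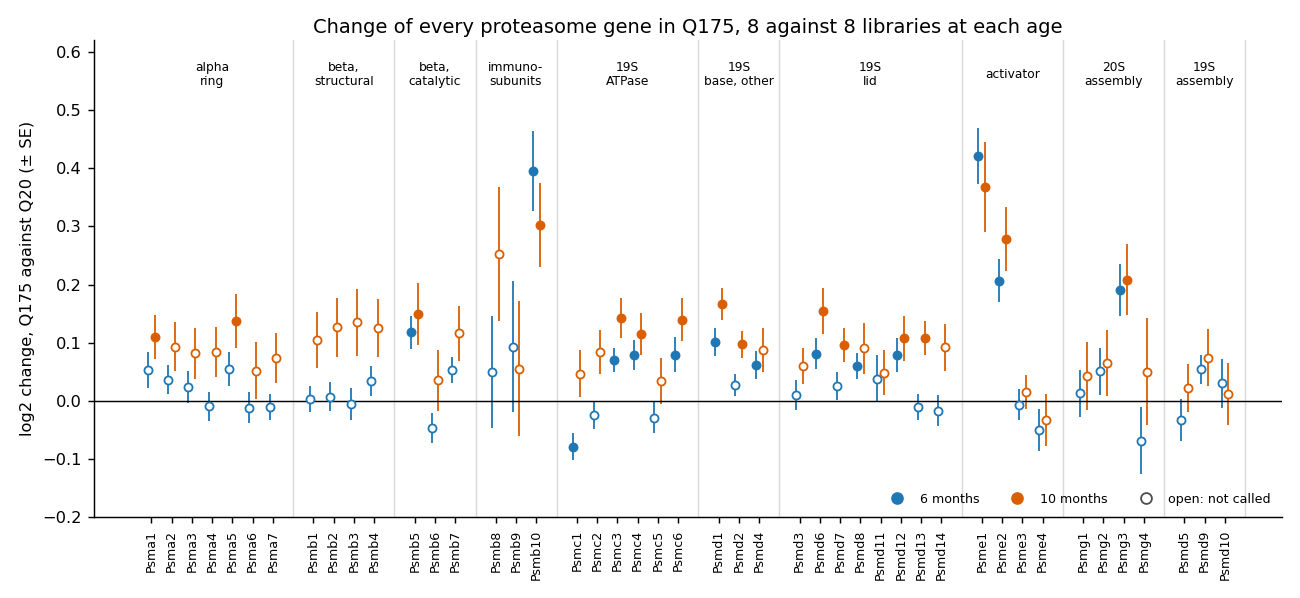
Log2 change of each member in Q175 against Q20 at 6 and 10 months (8 against 8 libraries at each age), with SE as bars, filled where called. Psme1, Psmb10 and Psme2 stand highest at both ages, and the values of 10 months lie above those of 6 months for all 14 genes of the alpha and constitutive beta rings.

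At 10 months, 16 members rose in Q175 and none fell (35.6%), beside 24.5% of the 17170 genes tested. By direction, 2136 of all genes were called higher and 2076 lower. The median change of the members was 0.093 against 0.011 for all genes, and 44 of 45 changes, called or not, were above 0. Psme1 had 22.97, 27.9 and 33.8 CPM in Q175 and 18.04, 21.2 and 25.01 CPM in Q20 (change 0.37, SE 0.077, adjusted p = 2.22e-04). Psmb10 had 11.6, 12.7 and 15.04 CPM against 9.35, 10.6 and 11.4 CPM, again without overlap (0.30, SE 0.073, adjusted p = 0.0013). Psme2 had 21.4, 23.5 and 26.01 CPM against 18.2, 19.7 and 21.8 CPM (0.28, SE 0.055, adjusted p = 9.75e-05). The 3 genes thus stood first again, by 21% to 29%.

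Psmd1 at 10 months was at 120.5 to 136.0 CPM in Q175 and 111.1 to 120.0 CPM in Q20, with no overlap (0.17, SE 0.028, adjusted p = 6.21e-06). Psmd13, a lid subunit, did not overlap either, at 55.1 to 58.2 CPM against 49.98 to 54.6 CPM (0.11, SE 0.030). Psmg3 rose by 0.21 (SE 0.061). Psmb5 rose by 0.15 (SE 0.054, adjusted p = 0.034). The remaining rises, named after their values were seen, were Psmd6 at 0.155, Psmc3 and Psmc6 at 0.14, Psma5 at 0.14, Psmc4, Psma1 and Psmd12 at 0.11 and Psmd2 and Psmd7 at 0.097. Psmb7 (0.12, adjusted p = 0.060), Psmb6 (0.035), Psmb8 (0.25, SE 0.12, adjusted p = 0.10) and Psmb9 (0.056, SE 0.12) were not called. None of the 4 structural beta subunits was called, with changes of 0.10 to 0.14 and SEs of 0.048 to 0.058. Of the 13 members that rose at 6 months, 11 rose at 10 months.

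The plot of mitochondrial share by library sets the share of counts on mitochondrial genes against the level of the core. Whether they moved together at 10 months was not tested. The share then ran from 12.8% to 16.3% (median 13.3%) in Q20 and from 11.9% to 14.4% (median 13.2%) in Q175. The summed level of the 14 core genes ran from 899 to 1031 CPM (median 927) in Q20 and from 946 to 1118 CPM (median 987) in Q175. With the mitochondrial share as a covariate, an alternative added after the data were seen, 31 members were higher in Q175 at 10 months, beside 31.6% of all genes, while the 6-month count stayed at 14. With the wild types housed with Q20 as the reference in place of Q20, 6 of the 45 members were called in Q175 at 10 months. All genes called under this setting were 24.6%, so the share of members was then below that of all genes. The 6 were Psme1 (0.47), Psmb10 (0.35), Psme2 (0.25), Psmd1 (0.16), Psmc3 (0.11) and Psmd2 (0.087).

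At 2 months no member was called in Q175 against Q20 by edgeR or DESeq2, with 1 member, Psmb9, at an unadjusted p under 0.05 (change -0.35, adjusted p = 0.78), beside 0.218% of the 17006 genes tested. Changes of Psme1, Psme2 and Psmb10 were -0.064, -0.088 and -0.068 with SEs of 0.14, 0.15 and 0.16. The 14 core genes all had negative changes, with a median of -0.18. 7 libraries of this age took 17.2% to 24.1% of their counts from mitochondrial genes, against 11.4% to 14.9% in the other 49, and 2 of them were Q20. Their summed core level was 1144 to 2134 CPM (median 1512), against 836.9 to 1105 CPM (median 871) in the others, and their 19S level 1536 to 1940 CPM against 1304 to 1583 CPM. Without these 7, a choice made after the data were seen, the median of the core in Q175 against Q20 was 0.073, with 14 of 14 above 0. Without the 5 of them that correlated least with the other libraries it was 0.079. 0 members were called in either case. With the mitochondrial share as a covariate the median of the core was -0.044, with 0 of 14 above 0. Again 0 members were called, beside 0.735% of all genes. The sign of the core's change at 2 months thus turned when these libraries were left out and did not turn with the covariate.

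**Figure D3:**
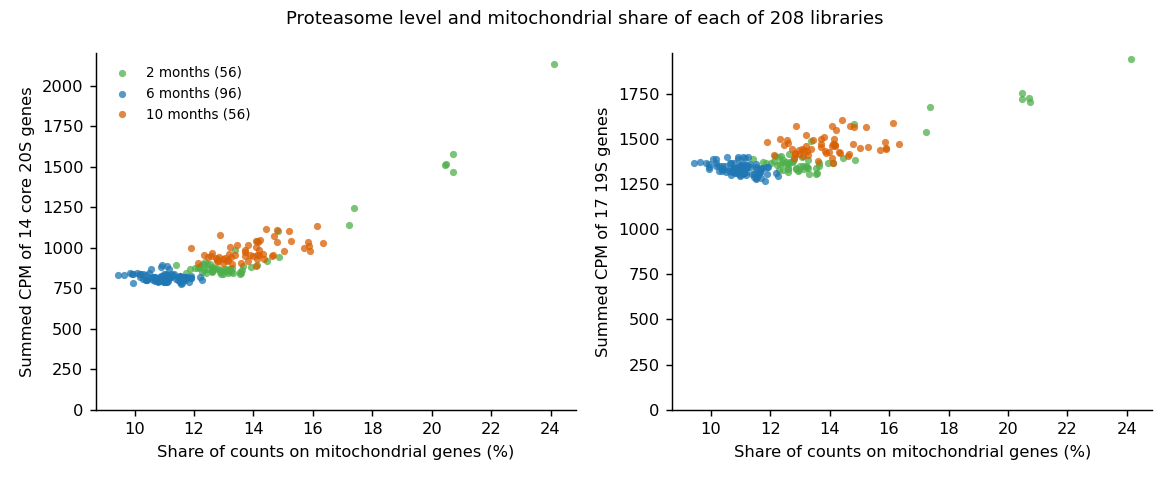
Summed CPM of the 14 core genes (left) and of 17 genes of the 19S particle (right) against the percent of counts on mitochondrial genes, 1 point per library, coloured by age. The 7 libraries of 2 months above 17% lie highest for the core, up to 2134 CPM. CPM were scaled within each age.

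The other lines were compared with the same Q20 libraries, so their values are given side by side and are not independent. At 6 months, Q80 had 0 called members by edgeR and DESeq2 (1 at an unadjusted p under 0.05; 0.289% of all genes called), Q92 had 7 higher (5.99% of all genes), Q111 had 4 higher (12.8%), and Q140 had 9 higher and 1 lower (27.9%). Psme1 rose by 0.22 (SE 0.048) in Q111 and 0.35 (SE 0.048) in Q140, while Q80 and Q92 were at 0.022 and 0.10 (SE 0.049 each), not called. Its median level was 20.0 CPM in Q20, 20.2 in Q80, 21.5 in Q92, 23.2 in Q111, 25.4 in Q140 and 27.3 in Q175. Neighbouring lines overlapped, and 3, 7 and 7 of the 8 libraries of Q111, Q140 and Q175 were above every Q20 library.

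Psme2 rose by 0.14 (SE 0.037) in Q111 and by 0.18 (SE 0.037) in Q140, where its 17.9 to 20.2 CPM did not overlap the 15.2 to 17.8 CPM of Q20. In Q80 and Q92 it was at 0.037 and 0.038, not called. Psmb10 rose in Q92 (0.32, SE 0.070), Q111 (0.23, SE 0.070) and Q140 (0.25, SE 0.070). In Q92 1 female library held 17.7 CPM, against 10.4 to 12.3 CPM in the other 7, and without it the change was 0.22 (adjusted p = 0.038). Psmg3 rose in Q92 (0.18, SE 0.045), Q111 (0.17, SE 0.045) and Q140 (0.17, SE 0.045), a nearly level step from Q92 to Q175. Psmd1 rose by 0.094 (SE 0.024) and Psmc1 fell by 0.065 (SE 0.023) on the log2 scale in Q140. With wild types housed with Q20 in place of Q20, Psmb10 in Q92, Q111 and Q140 (0.12, 0.033 and 0.050) and Psmg3 in these lines were no longer called. Psme1 and Psme2 in Q140 were, at 0.30 and 0.17.

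**Figure D4:**
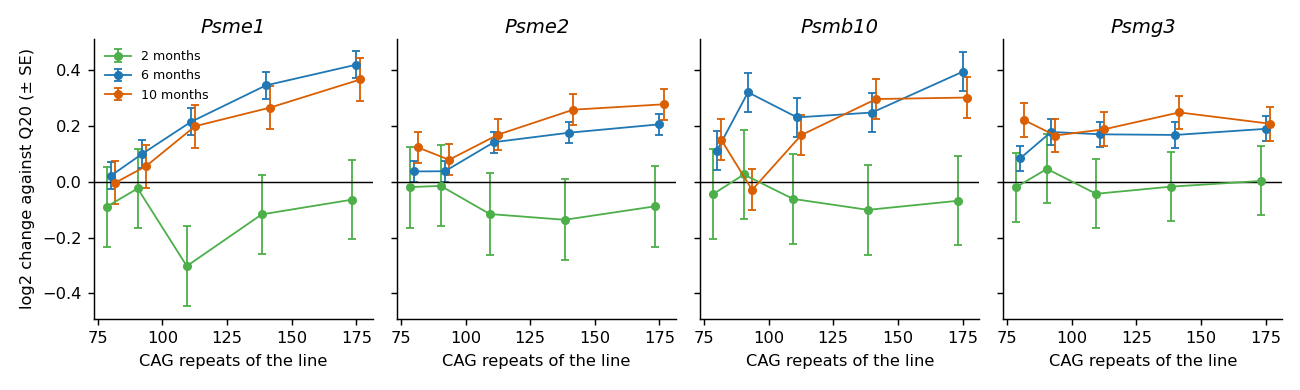
Log2 change against Q20 (SE as bars, 8 libraries per group) of Psme1, Psme2, Psmb10 and Psmg3, by the CAG repeat length of the line and by age, with points of different ages set slightly apart. At 6 months Psme1 goes from 0.022 in Q80 to 0.42 in Q175, and Psmg3 from 0.084 in Q80 to between 0.17 and 0.19 in the longer repeats.

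A straight line fitted through the 6 lines, given as log2 units per 10 CAG repeats, had a called slope for 16 members upward and 2 downward at 6 months (40.0%), beside 42.2% of all genes. The steepest rises were Psme1 at 0.030 (SE 0.0029), Psmb10 at 0.024 (SE 0.0041), Psme2 at 0.015 (SE 0.0022), Psmg3 at 0.012 (SE 0.0027) and Psmd1 at 0.0072 (SE 0.0014). The falls were Psmc1 at -0.0057 (SE 0.0014) and the catalytic Psmb6 at -0.0036 (SE 0.0015, adjusted p = 0.049). Psmc1 was called under 13 of 14 alternatives and Psmb6 under 6 of 14, and on log2(FPKM + 1) the slope of Psmb6 was 0.0009. At 10 months 16 members had a called slope upward and none downward (35.6%, beside 34.3% of all genes). They were led by Psme1 (0.026), Psmb10 (0.022), Psme2 (0.019), Psmg3 (0.013) and Psmd1 (0.012). Without Q20 the trends of Psme1, Psme2, Psmb10 and Psmd1 were still called at both ages, and that of Psmg3 was not (0.0072 and 0.0028). At 2 months no member was called by edgeR or DESeq2 (3 at an unadjusted p under 0.05, beside 0.594% of all genes called).

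At 10 months, Q140 had 16 members higher and none lower, beside 22.5% of all genes: Psmb10 rose by 0.30 (SE 0.073), Psme1 by 0.27 (SE 0.077), Psme2 by 0.26 (SE 0.055), Psmg3 by 0.25 (SE 0.061) and Psmb5 by 0.16 (SE 0.054). Q111 had 2 higher, Psmg3 (0.19) and Psme2 (0.17), beside 12.5%, and Psme1 was at 0.20 (adjusted p = 0.080). With wild types housed with Q20 in place of Q20, Psmg3 was at 0.035 in Q111 and 0.095 in Q140, not called. Psme2 in Q111 (0.14) and Psmb5 in Q140 (0.12) also lost the call. With the replicate number as a block neither call of Q111 held. Q92 had 0 by edgeR and DESeq2 (5 at an unadjusted p under 0.05; 1.12% of all genes). Q80 had 0 by edgeR and 3 by DESeq2, with 21 at an unadjusted p under 0.05, beside 0.122% of all genes called. The Q80 members nearest to a call were Psmg3 (0.22, adjusted p = 0.076), Psmd6 and Psmb4, and Psme1 was at -0.0037. The mitochondrial share in Q80 ran from 12.8% to 14.8% with a median of 14.2%, above the 13.3% of Q20, and the summed core from 945 to 1113 CPM. With the mitochondrial share as a covariate 5 members were called in Q80. The percent of all genes called in that fit is not given, so this count cannot be set against all genes. At 2 months Q80, Q92, Q111 and Q140 had 0 called members by edgeR and DESeq2, with 0, 0, 1 and 0 at an unadjusted p under 0.05, beside 0.0118%, 0.0%, 0.0176% and 0.0% of all genes.

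At 6 months each line could also be set against wild types from its own cages, which are separate libraries for each line. Q175 had 11 members higher and 1 lower (31.8% of all genes called) and Q140 15 higher and 1 lower (24.2%). Psme1 in Q175 was at 22.6 to 28.1 CPM against 17.1 to 21.3 CPM in its wild types, without overlap (0.42, SE 0.048, adjusted p = 6.89e-12). In Q140 it was at 22.8 to 27.6 against 19.2 to 22.5 CPM (0.26, SE 0.048), and in Q111 at 21.4 to 24.5 against 16.4 to 20.8 CPM (0.25, SE 0.048), again without overlap. Psmb10 rose by 0.33 (SE 0.069) in Q175 and 0.23 (SE 0.070) in Q140, Psme2 by 0.20 (SE 0.037) and 0.13 (SE 0.037), and Psmc1 fell by 0.074 in Q175.

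Of the 2 members called in Q111 against its wild types (8.94% of all genes), the second was Psmg3 (0.14, SE 0.045). Q20, Q80 and Q92 had 0 called members by edgeR and DESeq2 (4, 1 and 1 at an unadjusted p under 0.05; 0.0227%, 0.051% and 0.051% of all genes). Psmb10 in Q20 was at 8.50 to 10.8 CPM against 9.97 to 13.4 CPM in its wild types, a change of -0.20 (SE 0.070, adjusted p = 0.84). Psmb8 was lower in Q140 than in its wild types, with 2.03, 2.81 and 3.14 CPM against 2.59, 3.10 and 4.61 CPM (-0.25, SE 0.097, adjusted p = 0.045). Of 14 microglial markers 5 were lower in Q140 than in these wild types, with a summed level of 571 to 678 CPM against 651.3 to 729.7 CPM. With the microglial score as a covariate the change of Psmb8 was -0.097 (adjusted p = 0.52). The call was also lost without a filter on low counts (adjusted p = 0.077), on log2(FPKM + 1) by limma (0.15), with the L code of the library names as a covariate (0.085) and with only the groups compared (0.14).

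**Figure D5:**
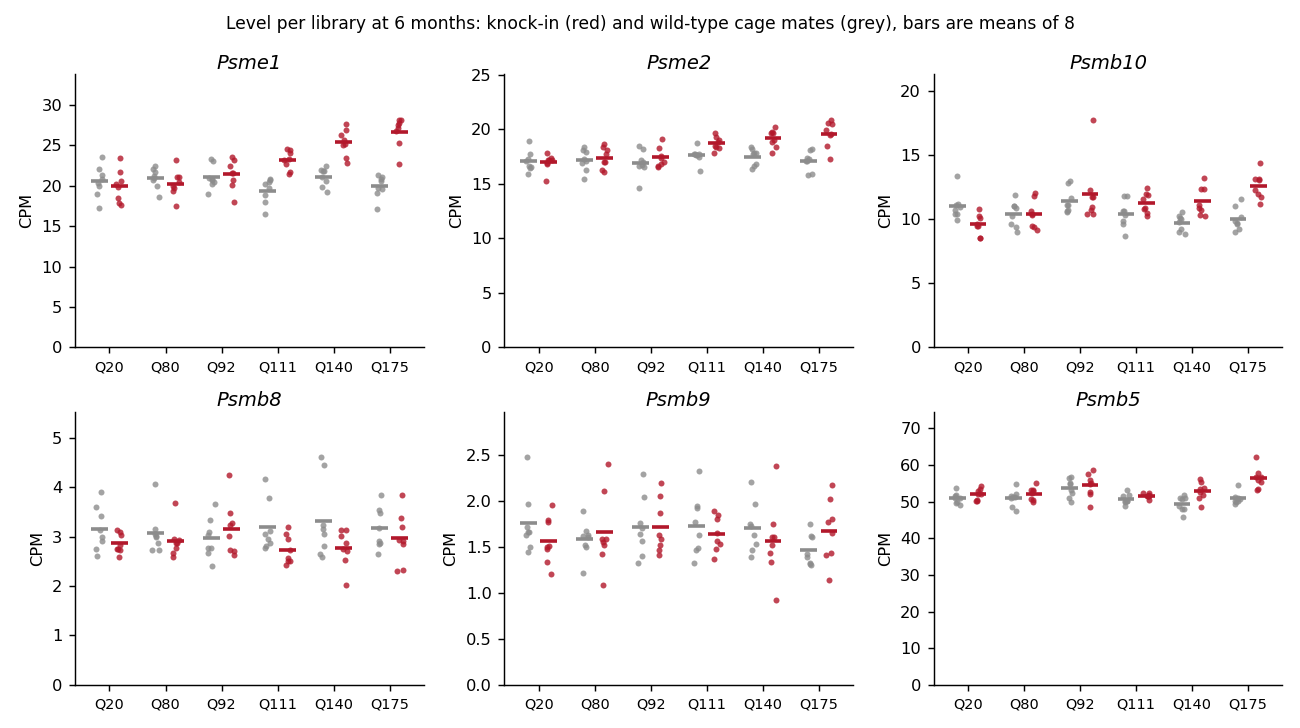
CPM of 6 members in each library of 6 months, by line, with wild-type cage mates in grey, knock-in mice in red and the mean of 8 as a bar. Psme1 of Q111, Q140 and Q175 lies above all libraries of its own wild types, while Psmb8 and Psmb9 overlap in every line.

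The change of the Q175 effect between ages was tested in a fit of the libraries of all ages. Between 2 and 6 months it was called for Psme1 (0.50, SE 0.13, adjusted p = 0.0069) and Psmb10 (0.47, SE 0.15, adjusted p = 0.027), 2 of 45 members, beside 7.88% of all genes. Without the 7 libraries of 2 months with a high mitochondrial share, Psme1 was at 0.25 (adjusted p = 0.061) and Psmb10 at 0.29 (adjusted p = 0.082). Between 6 and 10 months no member was called by edgeR or DESeq2 (0 at an unadjusted p under 0.05, beside 0.0112% of all genes).

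In wild types housed with Q20, 6 members were higher and 2 lower at 10 than at 2 months, beside 23.7% of all genes. Age and cohort cannot be told apart here, and the CPM of each age were scaled separately. Psmb8 had 3.20, 3.81 and 4.48 CPM at 10 months and 2.26, 2.58 and 3.405 CPM at 2 months (0.48, SE 0.13, adjusted p = 0.0040). Psmc6 was at 61.6 to 74.2 CPM against 49.9 to 58.7 CPM, without overlap (0.25, SE 0.048). Psmb10 (0.28), the lid subunit Psmd12 (0.17), the chaperone Psmd5 (0.15) and Psme3 (0.13, without overlap) were also higher, and Psmd3 (-0.13) and Psmd2 (-0.088) lower. Psmb10 (adjusted p = 0.045 by edgeR) was called under 8 of 11 alternatives, and the other called members under all 11. Psmb8 thus had the largest change with age of the called members. In the main test it was not called in Q175 against Q20 at any age. At 10 months it gained the call under 2 of 11 alternatives. These were log2(FPKM + 1) (0.27, adjusted p = 0.016 by limma) and the mitochondrial share as a covariate (0.31, adjusted p = 0.026 by edgeR). 1 of the 7 libraries of high mitochondrial share was a wild type of 2 months. Without the 7 the counts were 25 higher and 2 lower, beside 34.6% of all genes.

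Genes of class I antigen presentation and interferon response, 16 in a list that was chosen with earlier results of these data known, held 5 higher and none lower in Q175 at 6 months (median 0.17), beside 36.2% of all genes called, and 9 higher and none lower at 10 months (median 0.28), beside 24.5%. At 6 months these included Ifit1 (0.55) and Tapbpl (0.34), a peptide editor. At 10 months they were led by Irf7 (1.002), Ifit1 (0.66) and Ifit3 (0.47), and the class I gene H2-D1 rose by 0.36. In Q140, where Psme1, Psme2 and Psmb10 were also higher, 1 and 2 of the 16 were higher, with medians of -0.020 and 0.0096. The microglial list in Q175 held 0 higher and 3 lower genes at 6 months, with 610 to 724 CPM against 675 to 723 CPM in Q20, and 1 higher and 1 lower at 10 months, with 672 to 801 against 690 to 795 CPM.

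Of 24 tested further subunits, partners and regulators of the proteasome, 3 were higher and 5 lower in Q175 at 6 months and 6 higher and 2 lower at 10 months, beside the same 36.2% and 24.5% of all genes. The deubiquitinase Uchl5 (0.11 and 0.18) and the unfoldase Vcp (0.096 and 0.13) were higher at both ages. Nfe2l1, the transcription factor that induces proteasome genes when the proteasome is inhibited, was lower at both, from 335.7 to 303.9 CPM on average at 6 months (-0.14, SE 0.019) and by -0.13 (SE 0.030) at 10 months. The shuttle factor Ubqln4 was at -0.29 and -0.23, and Ddi2, the protease that activates Nfe2l1, at -0.21 at 6 months. Of 6 genes of ubiquitin and its activation, 1 was called, the activating enzyme Uba1 (0.16 and 0.13).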

How the data were processed

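Striatal RNA of 26 groups of 8 libraries was analysed. The authors' expected counts, estimated reads per gene, were rounded (32.7% of the values above 0 are not whole), and the authors' deposited FPKM were used for levels between genes. CASAVA 1.8.2 is named per the submitters' processing notes; for aligner and build, the entry is: not given in the sources used here. Symbols were found for 37607 of 39179 Ensembl IDs (96.0%), which hold 99.7% of the counts. CPM of libraries and groups are rounded counts scaled by the library total after the filter times its TMM factor, both taken within each age. The mean CPM that set the membership used expected counts and the plain library total, which was 29120490 to 49550126 counts (median 35669276). Precision is given by SEs between libraries.

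Each age was fitted with edgeR 4.0.16 in R 4.3.3 (TMM factors, filterByExpr with a minimum count of 10 and total of 15, robust quasi-likelihood, 1 term per group, sex), and all ages together for the age contrasts. This left 17006, 17642, 17170 and 17863 genes. Adjusted p is Benjamini-Hochberg, with a threshold of 0.05, and the SE is the log2 change over the square root of F. 27 comparisons were made. The procedure was tested on simulated data.

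The members and lists were chosen with earlier results of these data known. Named with values were Psmb5 to Psmb10, Psme1 and Psme2, and the 5 largest called rises and falls of Q175, Q140 and the trend (the 3 largest in other comparisons and in pathway lists); other called members of Q175 and of wild types were added after their values were seen. Alternatives were DESeq2 1.42.0, RLE factors, no filter, limma-trend (3.58.1) on log2(FPKM + 1), the replicate number as a block, the code starting with L in the library names (meaning not stated), tissue or microglial marker scores, wild types as the reference, only the groups compared, trends without Q20 or Q175 and fits without 5 libraries of 2 months whose median correlation with the others was under 0.97. Added after seeing the data were fits without 7 libraries of 2 months with over 15% mitochondrial counts, with the mitochondrial share as a covariate, and without single libraries. Same-numbered Q175 and Q20 libraries deviated together at 6 months (8 pairs, correlations 0.135 to 0.36, from the data and not the labels), and not at 2 (-0.313 to 0.141) or 10 months (-0.247 to 0.098). Figures were drawn with matplotlib 3.10.9. The value of 1 gene of a pathway list is not reported here.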

Additional observations from a re-analysis of the deposited data

Results flagged for a closer look

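In 32 combinations of 8 genes and 26 groups, 1 library stood apart from the other 7 by Dixon's criterion, where chance gives about 1 in 20. The Q80 male of 2 months with the highest mitochondrial share accounted for 7 of them: Psmb5 at 132.4 CPM, Psmb6 at 170.8, Psmb7 at 180.8, Psmb8 at 5.93, Psmb10 at 20.8, Psme1 at 40.7 and Psme2 at 42.2 CPM. The others of its group lay at 45.7 to 50.1 CPM for Psmb5. A Q111 female of 2 months held 72.1 CPM of Psmb5, 99.8 of Psmb6, 108.3 of Psmb7 and 24.3 of Psme2, and a Q140 female of 2 months 66.7, 85.2, 103.2 and 23.1 CPM of the same genes. A wild-type female of 2 months was high for Psmb5 (68.4 CPM) and Psme1 (26.3 CPM), and a Q175 female of 2 months for Psmb7 (92.9 CPM) and Psmb8 (4.54 CPM). In another Q140 female of 2 months Psmb9 was at 2.05 CPM.

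At 6 months single libraries were high for Psmb5 in wild types housed with Q175 (54.6 CPM), Psmb7 (79.5 CPM) and Psmb8 (4.06 CPM) in wild types housed with Q80, Psmb8 in Q80 (3.685 CPM), and Psmb10 in Q92 (17.7 CPM) and in wild types housed with Q20 (13.4 CPM). Psme2 was low in 1 Q20 library (15.2 CPM, the others 16.8 to 17.8). At 10 months Psmb6 was high in 1 wild type (83.4 CPM), Psmb7 in 1 Q20 (95.3 CPM) and Psme1 in 1 Q92 library (26.4 CPM). Psmb8 was low in 1 Q111 (2.18 CPM) and Psmb9 in 1 wild-type library (1.22 CPM).

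The effect of Q175 differed between 2 and 6 months for Psme1 (0.50) and Psmb10 (0.47) by edgeR's test of the difference. Both lost the call without the 2-month libraries of high mitochondrial share.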

How the results depend on the processing

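Of the values of single genes under the alternatives, 1017 kept their direction and call, 78 lost and 10 gained the call, and 5 reversed. Of the counts of called members, 293 stayed within 1.5 times and 46 moved, and the cause was not tested. The 293 include counts that were 0 in the main test and stayed 0, as for Q175 at 2 months by DESeq2. Psme1, Psme2 and Psmb10 in Q175 were called under all 14 alternatives at 6 months (0.38 to 0.48, 0.18 to 0.24 and 0.20 to 0.42) and all 11 at 10 months (0.32 to 0.47, 0.25 to 0.32 and 0.28 to 0.35).

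On log2(FPKM + 1) the called members were 31 (from 14) in Q175, 27 (from 10) in Q140, 22 (from 7) in Q92 and 34 (from 18) for the trend at 6 months, and 35 (from 16), 33 (from 16), 6 (from 2, Q111) and 39 (from 16) for Q175, Q140, Q111 and the trend at 10 months. Against own wild types they were 35 (from 12) in Q175, 25 (from 16) in Q140 and 7 (from 2) in Q111, and for the change of the Q175 effect from 2 to 6 months 4 (from 2). In Q175 the share of all genes called then also rose, from 36.2% to 51.7% at 6 months and from 24.5% to 37.7% at 10 months. The median over all genes was 0.067 at 6 and 0.063 at 10 months in Q175. For other counts of this section the share of all genes is not given unless stated beside them. Such counts may follow all genes and are no result about the members. Psmb6 in Q175 at 6 months (0.024), its trend (0.0009) and Psmc1 in Q175 against its wild types (0.0006) reversed.

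With wild types as the reference the counts were 6 in Q175 and 7 in Q140 at 10 months and 2 in Q111 at 6 months (from 4), and Psmb8 and Psmb9 in Q175 at 6 months reversed (-0.090 and -0.071). With the microglial score they were 32 in Q140 and for the trend, 9 in Q111 and 3 in Q80 at 10 months, 9 in Q140 against its wild types and 4 for the change from 2 to 6 months. The share of all genes called with this score is not given for these comparisons, so their counts cannot be set against all genes. For Q175 at 10 months it was 26.7%, against 24.5% in the main test. With the mitochondrial share the counts were 31 in Q175, 28 in Q140, 33 for the trend and 5 in Q80 at 10 months, 3 in Q92 at 6 months, 4 for the change from 2 to 6 months and 13 in wild types with age (from 8). All genes called were then 31.6% in Q175 at 10 months, 12.7% for that change and 34.1% in wild types with age. Wild types with age gave 16 without the 5 and 27 without the 7 libraries of 2 months, beside 31.7% and 34.6% of all genes. The change from 2 to 6 months gave 0 and 1, beside 8.66% and 9.86% of all genes. With tissue scores the counts were 4 in Q92 at 6 months and 1 for that change.

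Q92 at 6 months gave 4 without a filter and 0 with only the groups compared, and Q111 against its wild types 1 with each of these and with the L code. Q80 at 10 months gave 3 by DESeq2 and 11 with the L code. The trend gave 9 without Q175 and 9 without Q20 at 6 months and 9 without Q20 at 10 months. With the replicate block Q111 at 10 months gave 0 (from 2) and the change from 2 to 6 months 4. The block also ended the calls of Psmb5 at 10 months in Q175 (adjusted p = 0.059 by edgeR) and Q140 (adjusted p = 0.052), of Psmd12 at 10 months in Q175 (adjusted p = 0.081) and of the trend of Psmb6 at 6 months (adjusted p = 0.052), and moved no other count by over 1.5 times.

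Psmb8 and Psmb9, at 3.17 and 1.59 CPM on average, are limited by depth and spread.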
